A study of Mus musculus with 6 samples.

Results

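The genes described here are 10 markers used to recognise tendon stem/progenitor cells, the fibroblasts of the tendon sheath and paratenon, and the widely distributed progenitor fibroblasts called universal fibroblasts. They were taken as a named list, Tppp3, Pdgfra, Pi16, Dpp4, Ly6a, Cd34, Prg4, Thy1, Mcam and Nes, from 18099 genes in the table. All 10 were found and all 10 had enough reads to be tested. The RNA came from injured Achilles tendons of mice that were operated on at birth or within a day of it, with the repair tissue collected 7 days after the tendon was cut. The LysM-Cre; Ampkα1fl/fl group held 3 mice, in which Cre driven by the myeloid Lyz2 (LysM) locus removes the floxed sequence of Ampkα1, the catalytic α1 subunit of AMP-activated protein kinase. The control group held 3 floxed littermates without Cre, so both groups carried the floxed alleles and both were injured. Cre, and the Lyz2 locus that carries it, therefore differ between the groups together with Ampkα1, and their effects cannot be told apart here. LysM-Cre acts in macrophages, monocytes and granulocytes, whereas the fibroblasts and progenitors that express the 10 markers lie outside that lineage. The libraries came from whole tissue, and a lower value can mean fewer cells of a type or less RNA per cell, which cannot be told apart here.

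Tendon is built by tenocytes embedded between collagen fibres and is wrapped in a loose sheath and paratenon, from which cells enter the wound after injury. Tppp3 marks sheath and paratenon cells, and those that also carry Pdgfra, the receptor for platelet-derived growth factor A, can give rise to tenocytes. Universal fibroblasts surround vessels and line connective tissue in many organs and carry Pi16, Dpp4, Ly6a and Cd34. Thy1 (CD90), Mcam (CD146) and Nes (nestin) are used to recognise tendon stem/progenitor cells and cells around vessels, although each is also made by other cell types.

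Library totals were between 18076805 and 19479880 reads, and the fewest reads of any marker in any library were 286, for Dpp4 in a LysM-Cre library. The locus that carries the Cre checked the labels. Lyz2, the lysozyme gene that the Cre insertion disrupts, was at 390, 425 and 404 CPM (reads scaled to the same library size in every library, with TMM factors) in the control libraries and at 0.469, 0.811 and 0.432 CPM in the LysM-Cre; Ampkα1fl/fl libraries. Prkaa1, which encodes AMPKα1 and is expressed far beyond the myeloid lineage, did not pass the test in whole tissue (log2 fold change -0.08, SE 0.088, adjusted p = 0.744). Tenocyte genes were present at high levels in every library. For example, Tnmd ranged from 1550 to 1860 CPM in the control group and from 1660 to 2050 in the other group.

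Of the 10 markers, 1 passed the test, Dpp4, which was lower in the LysM-Cre; Ampkα1fl/fl group. The edgeR quasi-likelihood test with Benjamini-Hochberg adjustment over 14261 genes called 0.898% of all genes at an adjusted p under 0.05, with 0.568% lower and 0.33% higher. The groups did not overlap for 3 of the 10 markers, Pi16, Dpp4 and Cd34, all lower, against 11.4% of all genes tested (8.94% were higher without overlap). At an unadjusted p under 0.05, 6 of the 10 were lower (8.55% of all genes) and 0 were higher (5.97%). The estimate was below 0 for 9 of the 10 markers and for 50.6% of all genes. The median log2 fold change was -0.31 over the markers and -0.002 over all genes. By role, the median was -0.65 for the 4 universal fibroblast markers, -0.20 for the 3 sheath and paratenon markers and -0.09 for the 3 stem/progenitor and perivascular markers.

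**Figure D1:**
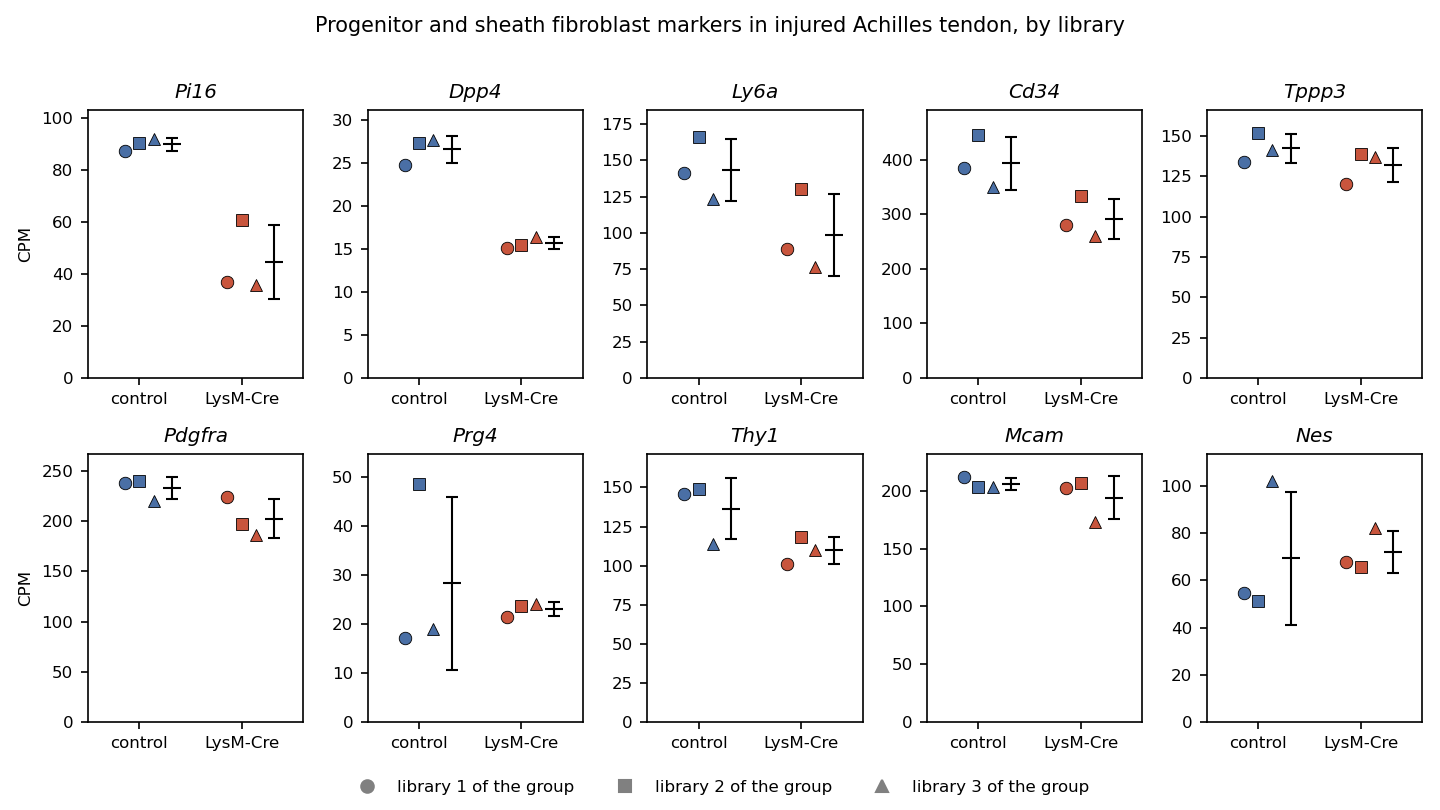
Level in CPM (vertical axis from 0) of each marker in the 3 control and 3 LysM-Cre; Ampkα1fl/fl libraries, with the mean and SD beside the points; the marker shape is the replicate number in the labels. Dpp4, Pi16 and Cd34 are lower in every LysM-Cre library than in every control library, while 1 control library stands high for Prg4 and another for Nes.

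Dpp4 encodes dipeptidyl peptidase 4 (CD26), a membrane protease that trims chemokines and peptide hormones (NCBI Gene 13482, chr2:62330073-62412315 in GRCm38.p6). It is used here as a marker of interstitial progenitors, but which cells of the whole tissue its reads came from was not tested. Dpp4 was at 24.8, 27.3 and 27.7 CPM in the control libraries and at 15.1, 15.5 and 16.4 CPM in the LysM-Cre; Ampkα1fl/fl libraries. Both groups were tight, and the highest LysM-Cre library lay well under the lowest control. The mean fell from 26.6 ± 1.6 to 15.7 ± 0.648 CPM (SD, n = 3 per group), a log2 fold change of -0.76 (SE 0.079, 95% interval -0.95 to -0.58). This passed the edgeR test (adjusted p = 0.0148). The exact permutation test of 3 against 3 libraries, two-sided, gave p = 0.1, which is the smallest this design allows. The call was lost without control library 1, 2 or 3 or LysM-Cre library 1, where the adjusted p was 0.073, 0.0985, 0.0547 and 0.0901 and the tests called only 0.0694%, 0.0556%, 0.167% and 0.0833% of all genes. It held without LysM-Cre library 2 or 3 (1.91% and 0.417% of all genes called). It also held with RLE (0.912%) or upper-quartile scaling (0.827%), without a low-count filter (0.778%), with at least 10 reads in every library (1.16%), with the replicate block (0.33%), with limma on TPM (0.484%) and with DESeq2 (4.67%).

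Pi16 encodes peptidase inhibitor 16, a defining marker of universal fibroblasts (NCBI Gene 74116, chr17:29318796-29328903). The control libraries held 87.1, 90.4 and 91.7 CPM and the LysM-Cre; Ampkα1fl/fl libraries 36.8, 60.8 and 35.5 CPM. The control libraries were close to each other, LysM-Cre library 2 lay between them and the other LysM-Cre libraries, and the groups did not overlap. The means were 89.7 ± 2.37 and 44.4 ± 14.2 CPM (SD, n = 3 per group). Pi16 had the largest estimate of the 10 markers, with a log2 fold change of -1.02 (SE 0.20, 95% interval -1.50 to -0.54), but it did not pass the edgeR test (adjusted p = 0.0851). Without LysM-Cre library 2 it was -1.31 (adjusted p = 0.00369), and the DESeq2 Wald test gave an adjusted p of 7.65e-06.

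Cd34 encodes a sialomucin found on progenitor fibroblasts, haematopoietic progenitors and vessel endothelium (NCBI Gene 12490, chr1:194938821-194961292). It was at 385, 445 and 350 CPM in the control group and at 280, 333 and 261 CPM in the LysM-Cre; Ampkα1fl/fl group. Library 2 was the highest of its group on both sides, and the highest LysM-Cre library lay just under the lowest control library. The estimate was a log2 fold change of -0.43 (SE 0.12, 95% interval -0.72 to -0.15), which did not pass the test (adjusted p = 0.169). By DESeq2 the adjusted p was 0.0106.

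Ly6a encodes SCA-1, a small membrane-anchored protein of progenitor fibroblasts and endothelium whose gene is induced by interferons (NCBI Gene 110454, chr15:74994877-74998031). The control values were 141, 166 and 123 CPM and the LysM-Cre; Ampkα1fl/fl values 88.7, 130 and 76.5 CPM. LysM-Cre library 2 was above the lowest control library, so the groups overlapped. A log2 fold change of -0.54 (SE 0.21, 95% interval -1.03 to -0.06) did not pass the test (adjusted p = 0.289). Between same-numbered libraries, which the labels do not state to be pairs, all 4 universal fibroblast markers were lower in the LysM-Cre; Ampkα1fl/fl mouse. Tppp3, Pdgfra and Thy1 were lower as well, which makes 7 of the 10 markers against 19.5% of all genes tested.

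Sequence before the gene is shown for the 3 markers whose groups did not overlap, 5′ to 3′ on the strand of the gene, as RefSeq gives it for GRCm38.p6. RefSeq's promoter entries hold 250 bases before a transcript start, and the bases of an entry that lie within the gene span given above (84 for Dpp4, 86 for Pi16 and 0 for Cd34) were left out. The stretches lie at chr2:62412316-62412481 (minus strand, 166 bases) for Dpp4, chr17:29318632-29318795 (plus strand, 164 bases) for Pi16 and chr1:194938571-194938820 (plus strand, 250 bases) for Cd34. Capitals mark matches, on either strand, to any of 6 short motifs that are named with their letters after the sequences.
Dpp4: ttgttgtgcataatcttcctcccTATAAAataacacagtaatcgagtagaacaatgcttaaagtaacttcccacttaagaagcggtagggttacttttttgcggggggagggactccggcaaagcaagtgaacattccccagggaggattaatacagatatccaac
Pi16: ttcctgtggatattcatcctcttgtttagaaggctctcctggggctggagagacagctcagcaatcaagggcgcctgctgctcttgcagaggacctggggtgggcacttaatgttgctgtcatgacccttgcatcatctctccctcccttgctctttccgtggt
Cd34: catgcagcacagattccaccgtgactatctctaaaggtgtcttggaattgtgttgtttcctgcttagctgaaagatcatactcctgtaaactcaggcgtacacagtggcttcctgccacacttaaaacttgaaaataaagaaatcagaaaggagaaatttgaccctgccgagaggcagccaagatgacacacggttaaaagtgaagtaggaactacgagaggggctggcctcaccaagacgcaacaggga

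The Dpp4 stretch held 1 match, to the letters of the TATA box (TATAAA), which begins 143 bases before the gene. Whether this match acts as a TATA box was not tested. The first 166 bases of 7.91% of all 32851 promoter entries hold this motif. The other motifs searched were the GC box (GGGCGG), in the first 166 bases of 18.9% of entries, the CCAAT box (CCAAT), in 22.4%, the interferon-gamma activated site (TTCNNNGAA), in 4.88%, the core of the interferon-stimulated response element (GAAANNGAA), in 4.92%, and the AP-1 site (TGACTCA), in 2.9%. None of the 6 strings of letters was in the Pi16 or the Cd34 stretch. The 3 stretches had 42.8% (Dpp4), 54.3% (Pi16) and 46.4% (Cd34) G and C, against a median of 52.4% over all entries of 250 bases. The 250 bases before Mcam had 73.6% G and C with 5 GC-box matches, and those before Nes 58.8% with 2. Of all entries, 32.7% hold a GC box in 250 bases. Whether base content goes with the fold changes was not tested. Entries were given for 6 of the 10 markers, the sixth being Pdgfra, whose entry lies within the gene, and not for Tppp3, Prg4, Ly6a and Thy1.

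Tppp3 encodes a tubulin polymerisation-promoting protein and is the marker of the tendon sheath (NCBI Gene 67971, chr8:105467492-105471422). Its values were 134, 152 and 141 CPM in the control libraries and 120, 139 and 137 CPM in the LysM-Cre; Ampkα1fl/fl libraries. The groups overlapped, and all 6 values lay in a narrow range. The log2 fold change was -0.11 (SE 0.079, adjusted p = 0.583), and its 95% interval of -0.30 to 0.08 excludes a fall as large as the estimate for Dpp4.

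Pdgfra is expressed by most fibroblasts (NCBI Gene 18595, chr5:75151322-75198206). It was at 238, 240 and 220 CPM in the control group and at 224, 197 and 186 CPM in the LysM-Cre; Ampkα1fl/fl group. LysM-Cre library 1 exceeded the lowest control library. Its log2 fold change of -0.20 (SE 0.081, 95% interval -0.39 to -0.01) did not pass the test (adjusted p = 0.322).

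Because Pdgfra is common to most fibroblasts, the other markers were also expressed as a ratio to it within each library, using TPM, a unit that accounts for transcript length and sums to the same total in each library. The Pi16 to Pdgfra ratio was 1.19, 1.24 and 1.37 in the control libraries and 0.539, 1.02 and 0.626 in the LysM-Cre; Ampkα1fl/fl libraries. The Dpp4 to Pdgfra ratio was 0.138, 0.147 and 0.162 against 0.0924, 0.105 and 0.121. Neither ratio overlapped between the groups (exact permutation test on log2 ratios, two-sided, p = 0.1 for each, the smallest possible, before any adjustment over the 6 ratios computed). Both markers were already separated before the division, and Pdgfra had a smaller estimate than either, so this adds little to their values above. The share of all genes whose ratio to Pdgfra separates was not computed. For Tppp3 the mean ratio was 5.14 ± 0.466 in the control group and 5.49 ± 0.912 in the LysM-Cre; Ampkα1fl/fl group (SD, n = 3), with overlap. The ratios of Ly6a, Cd34 and Thy1 overlapped as well, with control means of 6.02, 4.83 and 2.59 and LysM-Cre means of 4.82, 4.15 and 2.42.

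Prg4 encodes lubricin, the lubricating proteoglycan of gliding surfaces and superficial cartilage (NCBI Gene 96875, chr1:150449412-150466221). It was at 17.1, 48.6 and 19.0 CPM in the control libraries and at 21.4, 23.6 and 24.1 CPM in the LysM-Cre; Ampkα1fl/fl libraries. The high control library decided the estimate, and each LysM-Cre library lay above the other control libraries. The log2 fold change was -0.29 (SE 0.39, 95% interval -1.21 to 0.62, adjusted p = 0.790), and without control library 2 it was 0.35 (adjusted p = 0.340). Some cartilage genes were also high in that library: Col2a1, the main collagen of cartilage, was at 2090 CPM there and at 266 and 364 CPM in the other control libraries, and Col9a1 was at 80.9 CPM against 11.5 and 9.16 CPM. Others were not: Acan, the large cartilage proteoglycan, was at 789 CPM there against 896 and 760 CPM, and Sox9, the chondrocyte regulator, at 22.5 CPM against 26 and 20.1 CPM. Of 8 cartilage genes listed, 6 were tested, with summed levels of 1170 to 3030 CPM in the control group and 1500 to 1650 CPM in the other group. Acan passed the edgeR test as higher in the LysM-Cre; Ampkα1fl/fl group (log2 fold change 0.60, adjusted p = 0.0298, and 0.0634 with the replicate block), and DESeq2 called Sox9, Acan and Matn3 higher. The part of cartilage cells in the Prg4 values was not tested.

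Thy1 encodes a membrane glycoprotein of fibroblasts, neurons and T cells (NCBI Gene 21838, chr9:44043384-44048579). The control libraries held 146, 149 and 114 CPM and the LysM-Cre; Ampkα1fl/fl libraries 101, 118 and 110 CPM. Control library 3 lay within the range of the LysM-Cre group. Its log2 fold change was -0.32 (SE 0.11, 95% interval -0.59 to -0.05), which did not pass the test (adjusted p = 0.256). T cell genes were near 0: of 8 listed, 7 were in the table and 3 were tested. Their summed level was 3.28 to 4.5 CPM in the control group and 2.11 to 4.27 CPM in the other group. The part of T cells in the Thy1 values was not tested.

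Mcam encodes an adhesion molecule of endothelium and pericytes (NCBI Gene 84004, chr9:44134658-44142727). It was at 212, 203 and 203 CPM in the control libraries and at 202, 207 and 173 CPM in the LysM-Cre; Ampkα1fl/fl libraries. The values overlapped, with LysM-Cre library 3 the lowest. A log2 fold change of -0.09 (SE 0.078, 95% interval -0.27 to 0.10) did not pass the test (adjusted p = 0.674).

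Nes encodes nestin, an intermediate filament protein of stem and progenitor cells that Schwann cells, young muscle and growing vessels also make (NCBI Gene 18008, chr3:87971093-87980451). It was at 54.7, 51.3 and 102 CPM in the control libraries and at 68.0, 65.9 and 82.3 CPM in the LysM-Cre; Ampkα1fl/fl libraries. Control library 3 was the highest of all and the other control libraries were the lowest. The log2 fold change was 0.06 (SE 0.26, 95% interval -0.57 to 0.68, adjusted p = 0.953), and its sign changed in 4 of 14 alternative analyses. Control library 3 also held the most RNA of myelinating Schwann cells, with the myelin gene Prx (periaxin) at 457 CPM against 107 and 18.4 CPM in the other control libraries. Its muscle actin Acta1 was at 1310 CPM against 65.5 and 242 CPM, and LysM-Cre library 3, the next highest for Nes, had the highest Acta1 of all, 3840 CPM. Their part in the Nes values was not tested.

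**Figure D2:**
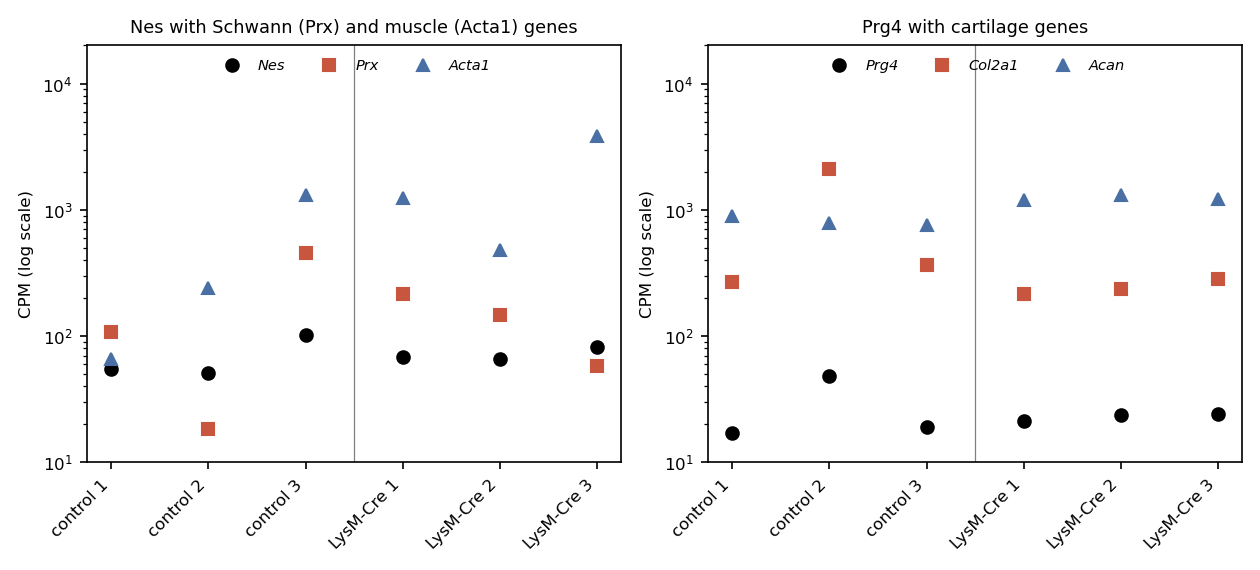
Level in CPM on a log scale in each of the 6 libraries, for Nes beside the Schwann cell gene Prx and the muscle gene Acta1 (left) and for Prg4 beside the cartilage genes Col2a1 and Acan (right). Nes is highest in control library 3, where Prx reaches 457 CPM, and Prg4 is highest in control library 2, where Col2a1 reaches 2090 CPM.

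Compared per length in TPM, the markers spanned a wide range of levels. In the control group the order of the means (SD, n = 3) was Ly6a 446 ± 58.7, Tppp3 380 ± 21.7, Cd34 358 ± 36.7, Thy1 192 ± 25.1, Mcam 161 ± 6.96, Pi16 93.5 ± 2.78, Pdgfra 74.1 ± 3.38, Nes 23.8 ± 9.97, Prg4 17.9 ± 11.6 and Dpp4 11 ± 0.416 TPM. The library ranges of Ly6a and Tppp3, of Tppp3 and Cd34, of Thy1 and Mcam, of Nes and Prg4, and of Prg4 and Dpp4 overlapped, whereas the other neighbours in this order were separated in every library. In the LysM-Cre; Ampkα1fl/fl group Tppp3 came first with 351 ± 32 TPM and Ly6a next with 312 ± 98.9 TPM, and these ranges overlapped. Pdgfra (64.7 ± 6.6 TPM) stood above Pi16 (46.9 ± 16.6 TPM), the reverse of the control order, with overlapping ranges. Dpp4 stayed last with 6.81 ± 0.222 TPM, below Prg4 in every library.

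The universal fibroblast markers were compared with 14 further genes of the same cells. These genes were listed with earlier results of these data known, so they are not independent support. Of the 14, 13 had a lower estimate in the LysM-Cre; Ampkα1fl/fl group, against 50.6% of all genes tested. The test called 3, all lower, against 0.568% of all genes. They were Clec3b (tetranectin), Pcolce2 (an enhancer of procollagen cleavage) and Cd55 (a complement inhibitor). The median log2 fold change was -0.40. Clec3b was at 183, 212 and 160 CPM in the control group and at 97.8, 105 and 82.5 CPM in the other group (log2 fold change -0.96, SE 0.13, adjusted p = 0.0310). Pcolce2 was at 26, 29 and 31.3 CPM against 13.5, 14.2 and 17.3 CPM (-0.94, SE 0.12, adjusted p = 0.0298). Both had the same non-overlapping pattern as Dpp4 and kept an adjusted p under 0.05 with the replicate block (0.0125 and 0.0271). Cd55 was at 66.8, 67.4 and 63.5 CPM against 44.1, 49.2 and 43.6 CPM (-0.53, SE 0.065, adjusted p = 0.0230, and 0.0533 with the replicate block).

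The groups did not overlap for 7 of the 14 genes, all lower, against 11.4% of all genes tested (8.94% were higher without overlap). Among those that did not pass the test, Dpt (dermatopontin) had the largest estimate, -0.73 (adjusted p = 0.0725), followed by Efhd1 with -0.65 (adjusted p = 0.565). Efhd1 overlapped between the groups and was high in control library 3, with 25.1, 21.6 and 59.4 CPM in the control libraries. The LysM-Cre; Ampkα1fl/fl libraries held 25.7, 28.7 and 13.1 CPM. The exception in sign was Mfap5, a microfibril protein, with 0.04. Leaving out 1 library moved the number of the 14 genes past the threshold to 0 without control library 1 or 2 or LysM-Cre library 1, to 1 without control library 3 (Dpt alone) or LysM-Cre library 3 (Pcolce2 alone), and to 5 without LysM-Cre library 2.

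**Figure D3:**
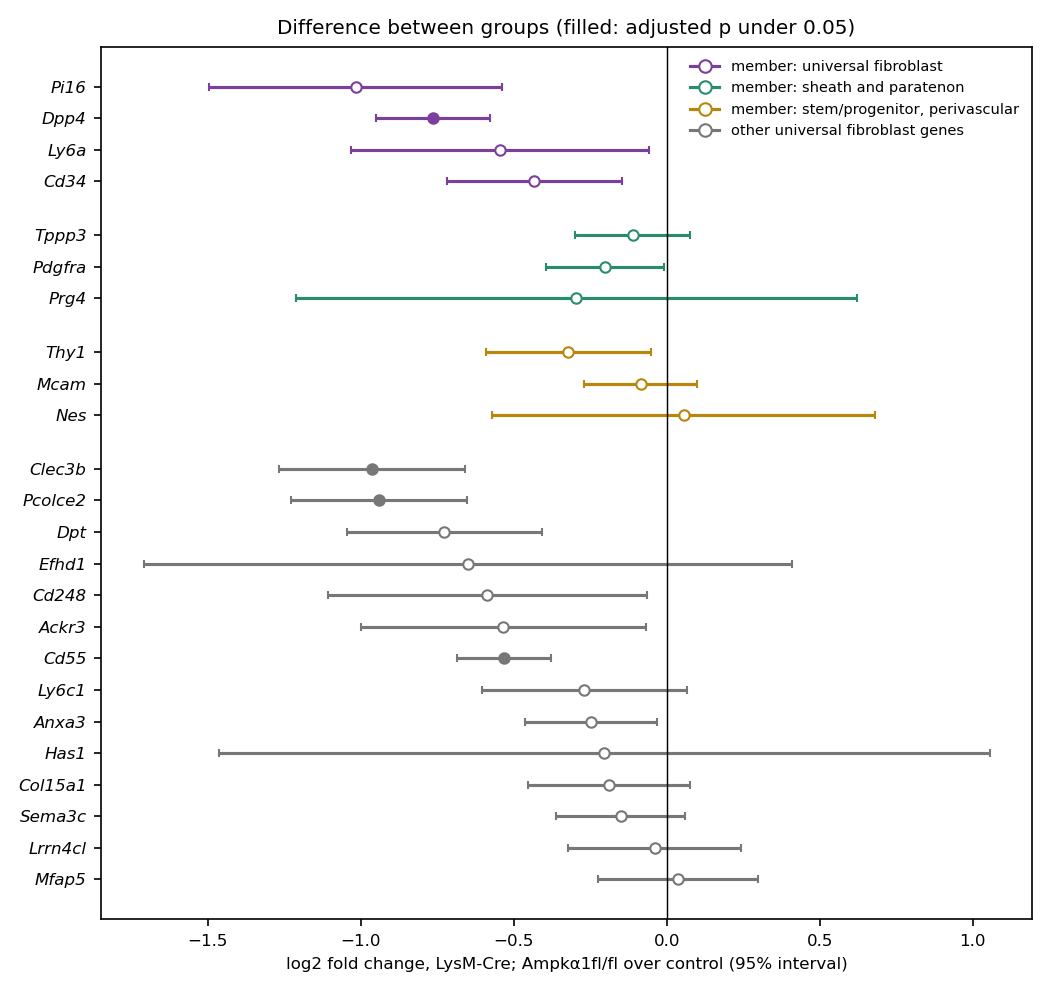
Log2 fold change (horizontal axis, LysM-Cre; Ampkα1fl/fl over control) with its 95% interval for the 10 markers, grouped by role, and for 14 further universal fibroblast genes; filled points have an adjusted p under 0.05. The filled points are Dpp4, Clec3b, Pcolce2 and Cd55, all below 0, and the estimates of Tppp3, Mcam and Nes lie close to 0.

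Lower estimates were less common in the further stem/progenitor and sheath genes and in the tenocyte genes. The pericyte and smooth muscle, endothelial and macrophage lists, given below, also had mostly lower estimates. Of 11 other stem/progenitor genes, such as Eng, Cd44 and Itgb1, 0 passed the edgeR test, 5 had a higher and 6 a lower estimate, and the median was -0.008 (2 with an unadjusted p under 0.05, both higher). Their extremes were Pdgfrb with 0.31, Ctsk with 0.30 and Lepr with -0.29. Of 6 other synovial lining and sheath genes, 0 passed, with a median of -0.04 and 1 gene at an unadjusted p under 0.05, Cdh11 (0.26). Clic5 (0.61) and Has2 (-0.19) had wide errors. Of 10 tenocyte genes 0 passed, with a median of 0.04, 1 at an unadjusted p under 0.05 (Comp, 0.35), and extremes otherwise of Scx with 0.22 and Kera with -0.21. DESeq2 called 1 gene in each of these 3 lists, Ctsk, Cdh11 and Comp, all higher. Whether the roles differ from each other was not tested.

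Some of the 10 markers are also made by other cells, whose own marker genes were read in the same libraries. Endothelial genes, relevant to Cd34, Ly6a and Mcam, had a lower estimate in 9 of 10 and none passed (smallest adjusted p = 0.0664, 3 lower and 1 higher at an unadjusted p under 0.05), with summed levels of 909 to 981 CPM in the control group and 840 to 875 CPM in the LysM-Cre; Ampkα1fl/fl group. The largest estimates were Cldn5 with -0.42, Vwf with -0.39 and Erg with 0.36. Pericyte and smooth muscle genes, relevant to Mcam and Nes, had a lower estimate in 7 of 9 with none past the threshold (6 lower and 1 higher at an unadjusted p under 0.05) and summed to 1690 to 1720 CPM against 1350 to 1420 CPM. Their largest estimates were Des with 1.52, Myh11 with -0.72 and Acta2 with -0.56. Des, which is part of these sums, was at 30.1, 56.1 and 119 CPM in the control libraries. In the LysM-Cre; Ampkα1fl/fl libraries it was at 139, 81.1 and 368 CPM, highest in the library with the highest Acta1. DESeq2 called 2 endothelial genes (Tek and Cldn5) and 3 pericyte and smooth muscle genes (Rgs5, Notch3 and Acta2), all lower. The groups did not overlap for 4 endothelial genes that were lower and 1 that was higher. The same held for 6 pericyte and smooth muscle genes that were lower and 1 that was higher. Over all genes tested, 11.4% were lower and 8.94% higher without overlap. No marker of these lists was at 0, and their part in the marker values was not tested.

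Genes of fat, cell division, macrophages and interferon responses were also read in the same libraries, and none passed the edgeR test. These lists too were chosen with earlier results of these data known, so their counts are not independent support. All 6 adipocyte genes had a lower estimate (median -1.08), none past the threshold but 3 at an unadjusted p under 0.05, with summed levels of 203 to 334 CPM in the control group and 65.3 to 221 CPM in the other group. They were led by Lep (-2.11), Plin1 (-1.66) and Adipoq (-1.27), and their lowest values were in LysM-Cre library 2, the LysM-Cre library with the highest Pi16, Ly6a and Cd34. All 12 cell division genes were lower in every LysM-Cre; Ampkα1fl/fl library than in any control library, against 11.4% of all genes tested. Their median was -0.65, and each had an unadjusted p under 0.05 (smallest adjusted p = 0.0871). At the front were Tpx2 (-0.73), Kif2c (-0.72) and Cdca3 (-0.71). Macrophage genes had a lower estimate in 9 of 11, 5 of them with an unadjusted p under 0.05 and none past the threshold (smallest adjusted p = 0.0508), with 1170 to 1220 CPM in sum against 762 to 990 CPM. Their largest estimates were Mrc1 with -0.83, Csf1r with -0.64 and Adgre1 with -0.52. The groups did not overlap for 5 of the 11 macrophage genes, all lower, against 11.4% of all genes tested. DESeq2 called 2 of the adipocyte genes, 9 of the cell division genes and 3 of the macrophage genes, all lower.

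All 14 interferon-induced genes had a higher estimate (median 1.04), 10 with an unadjusted p under 0.05 and none past the threshold (smallest adjusted p = 0.0530), led by Iigp1 (1.81), Cxcl10 (1.70) and Ifit3 (1.65). Ly6a, although it belongs to the interferon-induced genes elsewhere, had its lower estimate in the same libraries. All 18 skeletal muscle genes had a higher estimate (median 1.81, none past the threshold and 0 at an unadjusted p under 0.05), with sums of 255 to 4220 CPM against 1390 to 12300 CPM. Myh2 (2.64), Myh4 (2.19) and Tnni2 (1.95) led. All 5 myogenic progenitor genes tested had a higher estimate (median 1.33), and 4 of 8 Schwann cell genes a lower one (median -0.17, sums of 127 to 2570 CPM against 361 to 1160 CPM), with 0 past the threshold and 0 at an unadjusted p under 0.05 in either list. When a score of muscle gene expression entered the fit, which then called 0.526% of all genes, Dpp4 was still the marker called (log2 fold change -0.83, adjusted p = 0.0204). The estimates of Ly6a (-0.28), Cd34 (-0.28) and Thy1 (-0.16) were then smaller by over 1.5 times, Pi16 was at -0.86, and Cd55 no longer passed (adjusted p = 0.0613). By DESeq2, 9 interferon-induced genes passed as higher, and 0 genes of the muscle, myogenic and Schwann cell lists passed. The part of these lists in the lower marker values was not tested.

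**Figure D4:**
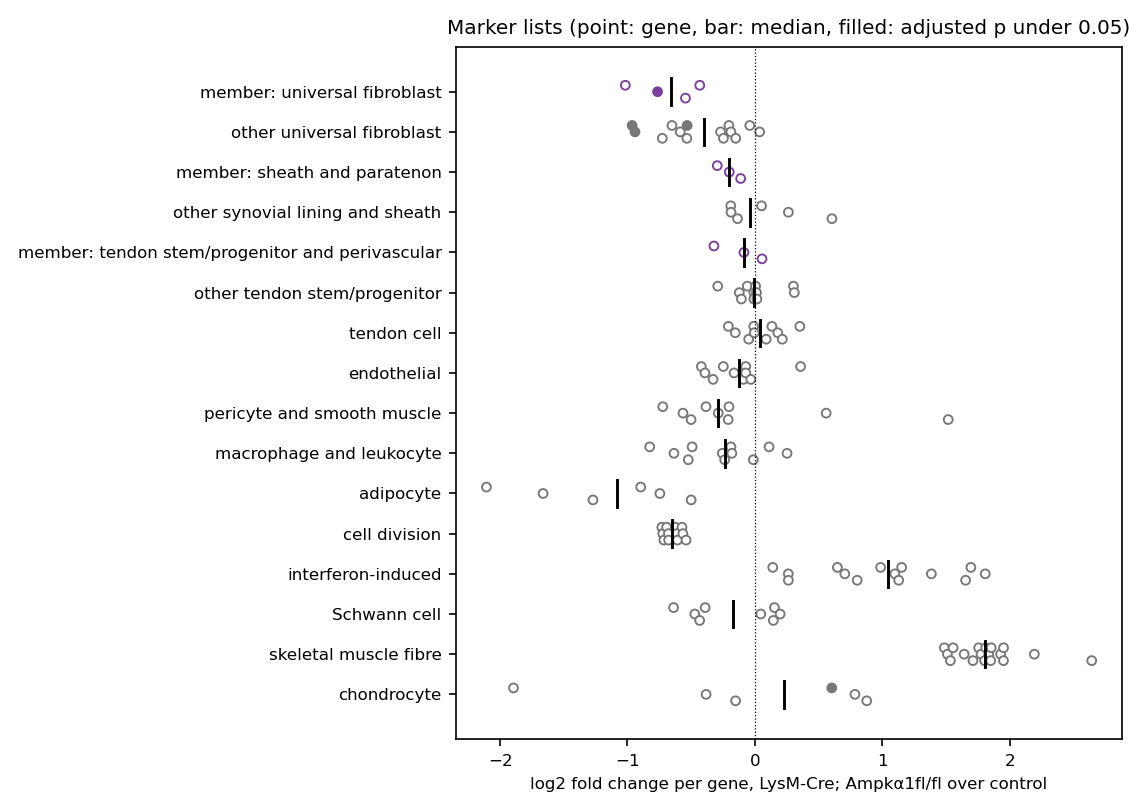
Log2 fold change (horizontal axis, LysM-Cre; Ampkα1fl/fl over control) of each tested gene in the marker lists, 1 point per gene, with the list median as a bar; filled points have an adjusted p under 0.05. Both universal fibroblast lists lie to the left of 0, with medians of -0.65 and -0.40, while the stem/progenitor and tendon cell lists centre near 0. Medians are also below 0 for adipocyte (-1.08), cell division (-0.65), pericyte and smooth muscle (-0.29), macrophage (-0.24), Schwann cell (-0.17) and endothelial (-0.13) genes. They are above 0 for skeletal muscle (1.81), interferon-induced (1.04) and chondrocyte (0.23) genes.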

How the data were processed

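For each of 65053 RefSeq transcripts and each of 6 libraries, the deposited table gives an estimated count, not normalized by the authors, and TPM values scaled to transcript length. Per the submitters' processing notes the genome build was GRCm38.p6. The aligner and counting tool are not given in the sources used here. The deposited FPKM values, the authors' normalized counts (a signal scaled by a factor per library) and the authors' group averages were not used. Estimated counts were summed per gene and rounded to whole reads, giving 18099 genes, of which 18049 (99.72%) matched a symbol through NCBI Gene identifiers in RefSeq. Totals were 18170082 to 18858366 reads in the control group and 18076805 to 19479880 in the LysM-Cre; Ampkα1fl/fl group.

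Groups and replicate numbers came from the sample titles, and the day and the age at injury from the paper. Differences were tested with edgeR 4.0.16 in R 4.3.3 (TMM, filterByExpr, quasi-likelihood F test without a block, Benjamini-Hochberg over 14261 genes, threshold 0.05), after a test on simulated data. SE is the estimate over the root of F. Exact permutation tests used log2(CPM + 0.5). Alternatives were RLE and upper-quartile scaling, no low-count filter, at least 10 reads in every library, a replicate block, a muscle score as covariate, DESeq2 1.42.0, limma 3.58.1 on log2(TPM + 0.5), and leaving out each library.

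The titles number the replicates and do not state that same-numbered libraries are pairs. Deviations from the group means correlated at 0.184, 0.118 and 0.31 between same-numbered libraries. The highest correlation, 0.501, was between control library 1 and LysM-Cre library 2, so no pairing was established. The replicate block and the comparison of same-numbered libraries are therefore given only beside the main test, which used no block. The members and gene lists were chosen with earlier results of these data known. Named were all 10 members, up to 3 genes with the largest change per list and every list gene past the threshold, Prkaa1 and Lyz2, and relatives of Ly6a; further genes are examples, chosen after their values were seen. In the Schwann cell list, 1 gene is not reported here.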

Additional observations from a re-analysis of the deposited data

How the results depend on the processing

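With 3 mice per group, the exact permutation test cannot go below p = 0.1, and at 286 to 506 reads per library the values of Dpp4 also carry counting error. Dpp4 kept its direction in all 14 alternatives and passed in 10 of them (adjusted p from 1.78e-07 to 0.0985), and the remaining markers other than Prg4 and Nes also kept their direction in all 14. Pi16 passed in 2 and Cd34 in 1, with DESeq2 (log2 fold changes -1.01 and -0.43) calling 3 markers and 684 genes. The replicate block gave 47 genes, the muscle covariate 75 and limma on TPM 69, against 128 in the main test, and each called 1 marker, Dpp4. The replicate block changed no call among the 10 markers. Nes turned to -0.29 with the muscle covariate, -0.09 without control library 1, -0.12 without control library 2 and -0.05 without LysM-Cre library 3, and Prg4 to 0.35 without control library 2.

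Leaving out 1 library gave 8 to 276 genes and 0 to 2 markers past the threshold, the latter Pi16 and Dpp4 without LysM-Cre library 2. The fold changes then ranged from -0.81 to -0.73 for Dpp4, -1.31 to -0.88 for Pi16, -0.54 to -0.33 for Cd34, -0.55 to 0.35 for Prg4 and -0.12 to 0.44 for Nes. In alternatives added after seeing the data, the 14 further universal fibroblast genes had 0 to 5 past the threshold without 1 library and 1 with limma on TPM. The cause of these differences was not tested, except that fits without a library have fewer samples.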

Other observations

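The estimated counts of several markers are split over transcripts by the authors' counting, which is an estimate where transcripts overlap. Dpp4 was spread over 5 transcripts. Its most abundant transcript took 88.4% to 95.9% of the gene's TPM in the control libraries and 81.7% to 87.1% in the LysM-Cre; Ampkα1fl/fl libraries. The minor Dpp4 transcripts rest on few reads, and this share was not tested. For Cd34, made as 2 transcripts, the larger share was 73.7% to 77.1% in the control group and 70.9% to 79.7% in the other group. For Ly6a, with 6 transcripts, it was 73.6% to 76.8% against 73.5% to 75.7%. Pi16 had 1 dominant transcript, with 97.7% to 98.1% against 96.7% to 97.2%.

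Ly6a has close relatives on chromosome 15 whose reads could be shared with it. Ly6c1 was at 62.5, 65.8 and 49 CPM in the control libraries and at 47.8, 56.6 and 42.8 CPM in the LysM-Cre; Ampkα1fl/fl libraries (log2 fold change -0.27, adjusted p = 0.446). Ly6c2 (1.22 to 2.52 CPM in all 6 libraries) and Ly6i (0.273 to 0.703 CPM) were low, and Ly6g had too few reads to be tested. Of the 3 LysM-Cre; Ampkα1fl/fl libraries, library 2 was the highest for 6 of the 10 markers, library 3 for 3 and library 1 for 1.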
